A study of Mus musculus with 5 samples.

Results

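The genes described here are those of megakaryocytes, the bone marrow cells that release platelets, and of platelets themselves. The list names 34 genes, of which 31 had a probe set annotated with that 1 symbol and Gp1ba, Serpine2 and Ptgs1 were not analysed here. The 31 stand among 18194 genes on the array, each read from its probe set with the highest mean over the 5 arrays. Bone marrow stem and progenitor cells of C57BL/6 mice were sorted by flow cytometry, and 2 arrays carry RNA from MSI2-inducible mice and 3 carry RNA from control rtTA mice. MSI2, a Musashi protein, binds RNA, and rtTA is the doxycycline-dependent activator used to switch on inducible transgenes. The labels give neither the animals' age nor whether and for how long the transgene was induced, nor the promoter that drives rtTA. Whether replicate arrays come from different animals is not labelled either, and p-values therefore speak only of array-to-array spread, which could be technical. The sample labels describe lineage-low cells with Sca1 and Kit, whereas the series text describes such cells with Kit but without Sca1.

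Megakaryocytes arise from stem and progenitor cells under thrombopoietin, copy their genome without dividing, and fill with granules that platelets later release at a wound. Platelets catch on von Willebrand factor through a glycoprotein Ib, V and IX complex, bind collagen and thrombin through further receptors, and clump through the integrin made of Itga2b and Itgb3. Part of this programme is already transcribed in stem cells, where Vwf marks a platelet-biased fraction. Several of the genes are not particular to the lineage: endothelial cells also make Vwf, Selp, F2r and Thbs1, smooth muscle makes Mylk, T cells make Lat, macrophages make Tbxas1, and Rap1b is made by most cells.

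Levels are given as log2 intensity. Each difference is that of MSI2-inducible minus control rtTA, and a negative one means a lower value in MSI2-inducible cells. Mouse Msi2, read from the brightest of its 8 probe sets, lay at 11.003 and 11.43 in the MSI2-inducible arrays and at 11.67, 11.76 and 11.74 in the control arrays, but the labels do not give the sequence of the transgene, and this probe set may not read it, so these values do not check the labels. Array medians lay between 46.4 and 48.3 intensity units before the log. Kit, whose product is part of the sort, lay at 8.80 and 9.50 in the MSI2-inducible arrays and at 9.19, 9.35 and 9.66 in the control arrays. Of 9 stem and progenitor genes, 8 were measured. Slamf1 (-1.27, unadjusted limma p 0.0426) and Mecom (-0.58, unadjusted limma p 0.0240) were lower in MSI2-inducible cells without overlap. They make up 25.0% of the 8. Of all genes, 2.77% were lower at an unadjusted limma p under 0.05 and 9.39% were lower without overlap. Without MSI2-inducible replicate 1 Slamf1 and Mecom differed by -0.45 and -0.38, and with the mean of its probe sets Mecom was no longer lower. The lineage-defining integrin gene Itga2b lay between 7.89 and 8.36 and Pf4 between 7.90 and 10.05 over the 5 arrays, so megakaryocyte transcripts were measured in both groups. In whole sorted populations such as these, fewer cells of a type and less RNA per cell cannot be told apart.

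No megakaryocyte or platelet gene passed the test, and 5 of the 31 stood out by an unadjusted p. Pf4, Vwf, Mylk and F2r had lower values in MSI2-inducible cells, and Itgb3 had higher ones. At a limma adjusted p under 0.05, 0 members were higher and 0 lower, against 0.0165% and 0.00550% of all genes. An unadjusted limma p under 0.05 was reached by 4 members that were lower (12.9%, against 2.77% of all genes) and by 1 that was higher (3.23%, against 2.87%). Values of the MSI2-inducible and control arrays were fully separate for 5 members that were lower (16.1%, against 9.39% of all genes) and for 2 that were higher (6.45%, against 9.27%). The higher count was thus near or under the background. In all, 23 members had a negative difference and 8 a positive one, while 49.6% of all genes had a negative difference and 50.4% a positive one. The median difference of the members was -0.09, beside 0.00 for all genes, with a range from -1.38 to 0.80.

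**Figure D1:**
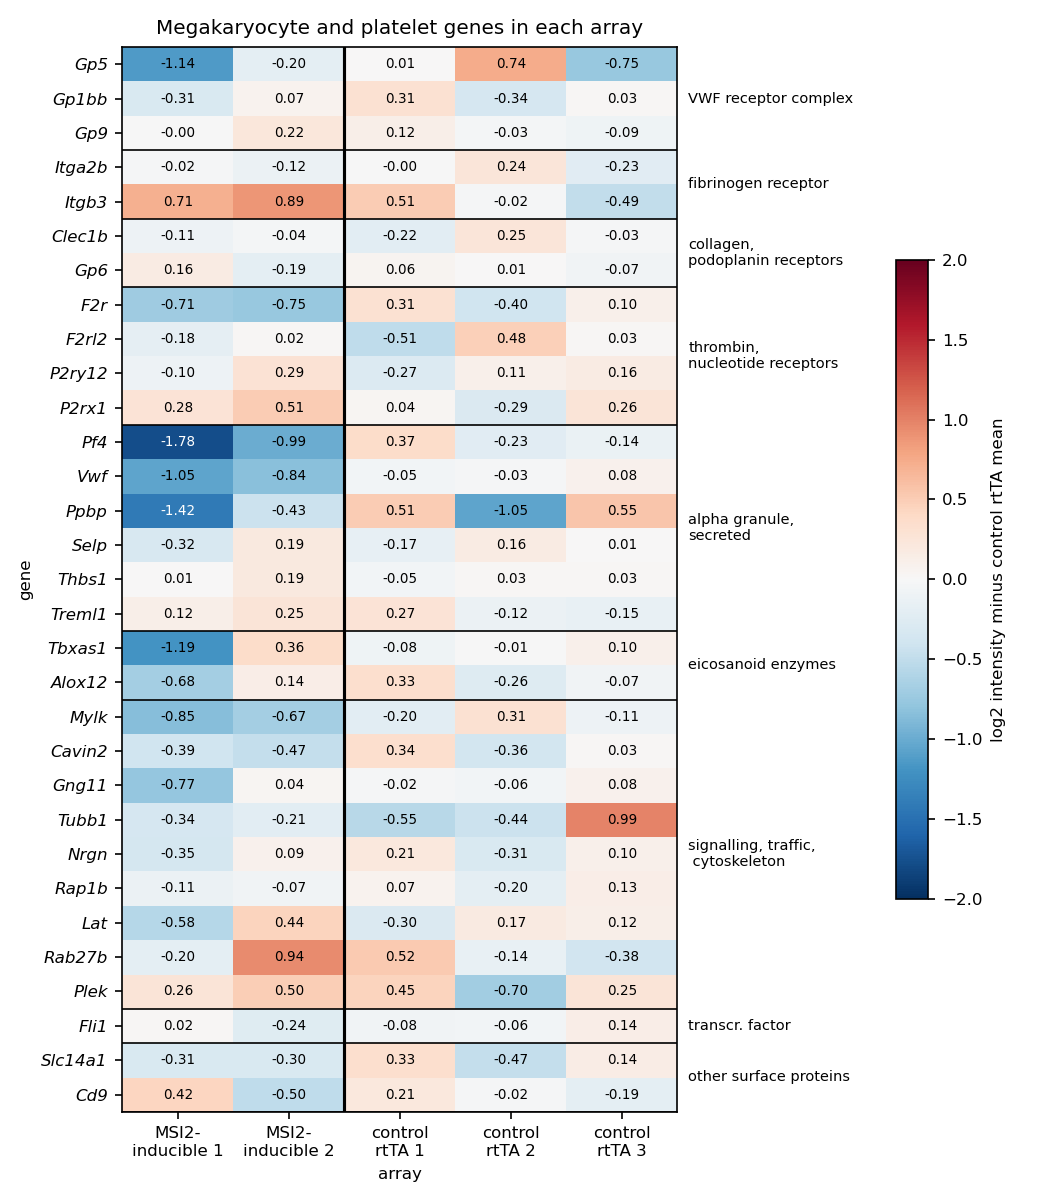
Each cell is the log2 intensity of a gene in an array minus that gene's mean over the 3 control rtTA arrays, for the 31 measured genes in rows grouped by role and the 5 arrays in columns. Pf4, Vwf, Mylk and F2r are blue in both MSI2-inducible arrays, Itgb3 is red in both, and Cavin2 and P2rx1 complete the rows in which the groups do not overlap.

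**Figure D2:**
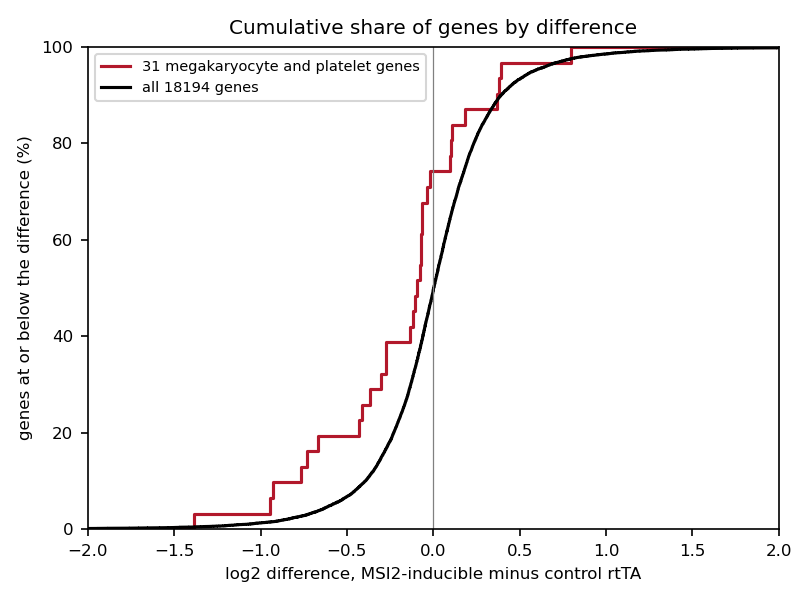
Cumulative share of genes, in percent, at or below each log2 difference of MSI2-inducible minus control rtTA, for the 31 megakaryocyte and platelet genes and for all 18194 genes. The members' curve lies above that of all genes between -1.38 and 0, where 23 of the 31 fall.

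Among the secreted and granule genes, Pf4, which encodes platelet factor 4, a chemokine packed into alpha granules, differed most. Its values were 7.90 and 8.69 in the MSI2-inducible arrays and 10.05, 9.45 and 9.54 in the control arrays. Both MSI2-inducible arrays lay below every control array, replicate 1 further than replicate 2. The means were 8.29 ± 0.56 (SD, n = 2) in MSI2-inducible and 9.68 ± 0.33 (SD, n = 3) in control cells, a difference of -1.38 (limma SE 0.31, 95% interval -2.15 to -0.62) or a level 0.383 times that of control. The unadjusted limma p was 0.0046 and the adjusted p 0.616. A share of 0.43% of all genes had a difference as low or lower.

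Vwf, which encodes the adhesive protein that tethers platelets to a vessel wall, had the smallest p of the list. It lay at 7.59 and 7.80 in the MSI2-inducible arrays and at 8.59, 8.61 and 8.72 in the control arrays. The groups were well apart and the arrays within each close together. The means were 7.69 ± 0.15 (SD, n = 2) and 8.64 ± 0.07 (SD, n = 3), a difference of -0.95 (limma SE 0.17, 95% interval -1.37 to -0.53), with an unadjusted limma p of 0.00154 and an adjusted p of 0.461. The level was 0.519 times that of control.

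The groups overlapped for the other granule and secreted genes. Ppbp, which encodes a second platelet chemokine beside Pf4 on the same chromosome, lay at 3.12 and 4.11 in the MSI2-inducible arrays and at 5.05, 3.49 and 5.09 in the control arrays. Control replicate 2 fell between the MSI2-inducible arrays, and the difference of -0.93 had a 95% interval from -2.34 to 0.48. P-selectin (Selp), which reaches the surface when granules fuse with it, differed by -0.07 (95% interval -0.62 to 0.49). The granule receptor gene Treml1 differed by 0.19 (95% interval -0.32 to 0.69) and the matrix protein gene Thbs1 by 0.10 (95% interval -0.31 to 0.51). Ppbp, Treml1 and Thbs1 had mean values under 5.57, the median of all probe sets, and the sizes of such dim differences are uncertain. The same held for 10 of the 31 members, against 42.0% of all genes.

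The stretch of 250 bases upstream of the annotated start is shown for 3 genes with lower values in MSI2-inducible cells (Pf4, F2r and Mylk) and for 2 lineage genes with a difference near 0 (Itga2b and Gp9), since GATA, ETS and RUNX factors are known to act at megakaryocyte promoters. The sequences are RefSeq's, build GRCm38.p6, read 5′ to 3′ on the gene's strand. Capitals mark the motif matches, on either strand: the letters AGATAA and their variants AGATAG, furthermore TGATAA and the variant TGATAG for GATA factors, the letters AGGAAG and their variant CGGAAG for ETS factors such as Fli1, and the letters TGTGGT and their variant TGCGGT for RUNX factors. No match overlapped another in these windows. The windows are Pf4 chr5:90772185-90772434 (plus strand), F2r chr13:95618467-95618716 (minus), Mylk chr16:34784700-34784949 (plus), Itga2b chr11:102469884-102470133 (minus) and Gp9 chr6:87777820-87778069 (plus).
Pf4: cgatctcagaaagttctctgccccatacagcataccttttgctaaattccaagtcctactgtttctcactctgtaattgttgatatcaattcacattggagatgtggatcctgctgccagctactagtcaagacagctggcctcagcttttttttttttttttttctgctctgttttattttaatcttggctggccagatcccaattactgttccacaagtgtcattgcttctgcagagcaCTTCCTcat
F2r: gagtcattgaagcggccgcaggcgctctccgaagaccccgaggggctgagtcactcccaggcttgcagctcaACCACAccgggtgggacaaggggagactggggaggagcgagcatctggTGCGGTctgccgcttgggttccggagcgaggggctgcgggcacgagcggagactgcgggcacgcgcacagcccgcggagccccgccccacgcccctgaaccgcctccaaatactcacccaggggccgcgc
Mylk: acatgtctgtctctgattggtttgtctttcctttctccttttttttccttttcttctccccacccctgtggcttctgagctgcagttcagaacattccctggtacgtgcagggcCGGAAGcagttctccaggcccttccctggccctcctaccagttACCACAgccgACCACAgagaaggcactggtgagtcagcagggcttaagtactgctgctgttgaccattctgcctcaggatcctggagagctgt
Itga2b: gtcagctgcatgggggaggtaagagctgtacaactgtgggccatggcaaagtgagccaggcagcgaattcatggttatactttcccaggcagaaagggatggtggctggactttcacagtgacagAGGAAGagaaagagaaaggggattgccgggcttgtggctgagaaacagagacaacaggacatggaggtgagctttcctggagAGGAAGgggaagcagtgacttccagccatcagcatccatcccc
Gp9: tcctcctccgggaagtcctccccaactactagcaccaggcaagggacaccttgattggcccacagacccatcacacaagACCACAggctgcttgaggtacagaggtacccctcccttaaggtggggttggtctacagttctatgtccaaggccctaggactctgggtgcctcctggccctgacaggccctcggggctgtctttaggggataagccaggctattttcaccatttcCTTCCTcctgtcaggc

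The Pf4 window held 1 ETS match and no GATA or RUNX match, and the F2r window held 2 RUNX matches alone. The Mylk window held 1 ETS and 2 RUNX matches, the Itga2b window 2 ETS matches, and the Gp9 window 1 ETS and 1 RUNX match. The ETS match stood 9 bases before the start of Pf4 and 16 before that of Gp9. ETS letters were thus present both upstream of genes with a lower value (Pf4 and Mylk) and upstream of those with a difference near 0 (Itga2b and Gp9). Of the 31 measured genes, 24 had a window in the RefSeq table. An ETS match was found in 14 of them (58.3%, against 39.2% of all 32851 windows in the table), a GATA match in 6 (25.0%, against 26.5%) and a RUNX match in 4 (16.7%, against 18.6%). A match is a description of the letters, and its use by a factor was not measured.

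Genes of the platelet receptors for von Willebrand factor, fibrinogen and collagen differed in both directions. Within the fibrinogen receptor, the groups were apart for the beta chain gene Itgb3 and overlapped for the alpha chain gene Itga2b. Itgb3 lay at 9.37 and 9.55 in the MSI2-inducible arrays and at 9.18, 8.64 and 8.17 in the control arrays. Both MSI2-inducible arrays were above every control array, but control replicate 1 came within 0.20 of the nearer one. The means were 9.46 ± 0.13 (SD, n = 2) and 8.66 ± 0.50 (SD, n = 3), a difference of 0.80 (limma SE 0.31, 95% interval 0.03 to 1.57), with an unadjusted limma p of 0.0437 and an adjusted p of 0.883. Itga2b, by which megakaryocytes are usually sorted, lay at 8.10 and 8.004 in the MSI2-inducible arrays and at 8.12, 8.36 and 7.89 in the control arrays. The groups overlapped, and its difference of -0.07 had a 95% interval from -0.57 to 0.43.

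Of the von Willebrand factor receptor, Gp9 lay at 6.80 and 7.03 in the MSI2-inducible arrays and at 6.93, 6.77 and 6.72 in the control arrays. Gp1bb lay at 5.02 and 5.41 in the MSI2-inducible arrays and at 5.64, 4.998 and 5.36 in the control arrays. Neither small subunit separated the groups, with differences of 0.11 (95% interval -0.33 to 0.54) and -0.12 (95% interval -0.74 to 0.50). Gp5, which encodes the subunit that thrombin cleaves, differed by -0.67 (95% interval -1.88 to 0.55), and its control arrays alone spread from 4.39 to 5.88. The collagen receptor gene Gp6 differed by -0.02 (95% interval -0.47 to 0.44), and Clec1b, which encodes the podoplanin receptor CLEC-2, by -0.07 (95% interval -0.57 to 0.42). Gp1bb, Gp5, Gp6 and Clec1b also had means under the median of all probe sets.

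The receptors for thrombin and nucleotides differed in both directions. F2r, the thrombin receptor PAR1, lay at 9.63 and 9.59 in the MSI2-inducible arrays and at 10.65, 9.93 and 10.43 in the control arrays. The MSI2-inducible arrays agreed closely and lay below all 3 control arrays. The difference was -0.73 (limma SE 0.25, 95% interval -1.35 to -0.12), a level 0.602 times that of control, with an unadjusted limma p of 0.0269 and an adjusted p of 0.870. In mice platelets do not rely on F2r for their thrombin response, whereas human platelets do, and the mouse platelet co-receptor PAR3 is encoded by F2rl2. F2rl2 lay at 6.41 and 6.61 in the MSI2-inducible arrays and at 6.08, 7.07 and 6.62 in the control arrays, within the control spread. P2rx1, an ATP-gated ion channel of platelets, lay at 7.59 and 7.82 in the MSI2-inducible arrays and at 7.35, 7.02 and 7.57 in the control arrays. Its groups did not overlap, but by only 0.02, and the difference of 0.39 had an unadjusted limma p of 0.130. P2ry12, the ADP receptor that clopidogrel blocks, differed by 0.10 (95% interval -0.46 to 0.65).

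Genes of signalling, traffic and the cytoskeleton included Mylk and Cavin2, both with lower values in MSI2-inducible cells. Mylk, which encodes myosin light chain kinase, lay at 8.39 and 8.57 in the MSI2-inducible arrays and at 9.04, 9.55 and 9.14 in the control arrays. Every MSI2-inducible array was below every control array. The difference was -0.76 (limma SE 0.22, 95% interval -1.30 to -0.23), a level 0.589 times that of control, with an unadjusted limma p of 0.0133 and an adjusted p of 0.829. Cavin2, a coat protein of caveolae, lay at 7.39 and 7.31 in the MSI2-inducible arrays and at 8.12, 7.42 and 7.81 in the control arrays. Control replicate 2 lay just above both MSI2-inducible arrays, and the difference of -0.43 had an unadjusted limma p of 0.128.

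The remaining signalling genes overlapped between groups. The G protein subunit gene Gng11 differed by -0.37, the platelet tubulin gene Tubb1 by -0.28, the calmodulin-binding protein gene Nrgn by -0.13 and the small GTPase gene Rap1b, which acts on the fibrinogen receptor, by -0.09. The adaptor gene Lat, which acts below the collagen receptor, differed by -0.07. Positive differences were found for Rab27b, a GTPase gene of granule docking (0.37), and for Plek, the protein kinase C substrate pleckstrin (0.38). Their limma adjusted p lay between 0.923 and 0.991. Without control replicate 2 Plek differed by 0.03, and its other probe sets differed by -0.01 and -0.17 over all arrays. Tubb1 had a mean under the median of all probe sets, and its control replicate 3 (4.24) stood above the other 4 arrays (2.70 to 3.04).

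Both enzymes of the eicosanoid pathway that were measured had lower means, set by 1 array. Tbxas1, which makes thromboxane, lay at 7.597 and 9.15 in the MSI2-inducible arrays and at 8.71, 8.78 and 8.89 in the control arrays. MSI2-inducible replicate 1 was the lowest of the 5 and replicate 2 the highest. The lipoxygenase gene Alox12 lay at 4.75 and 5.57 in the MSI2-inducible arrays and at 5.76, 5.17 and 5.36 in the control arrays. There too replicate 1 was the lowest, while control replicate 1 was the highest. The differences of -0.42 and -0.27 had limma adjusted p of 0.947 and 0.950, and without MSI2-inducible replicate 1 they were 0.36 and 0.14.

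Fli1, the ETS factor that drives many of these genes, lay at 8.69 and 8.43 in the MSI2-inducible arrays and at 8.59, 8.60 and 8.80 in the control arrays. Its difference was -0.11 (95% interval -0.55 to 0.34). The tetraspanin gene Cd9 differed by -0.04, with the MSI2-inducible arrays at 8.18 and 7.26 on either side of the control arrays (7.57 to 7.97). The urea transporter gene Slc14a1 lay at 8.61 in both MSI2-inducible arrays and at 9.24, 8.44 and 9.06 in the control arrays, a difference of -0.30 with overlapping groups.

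**Figure D3:**
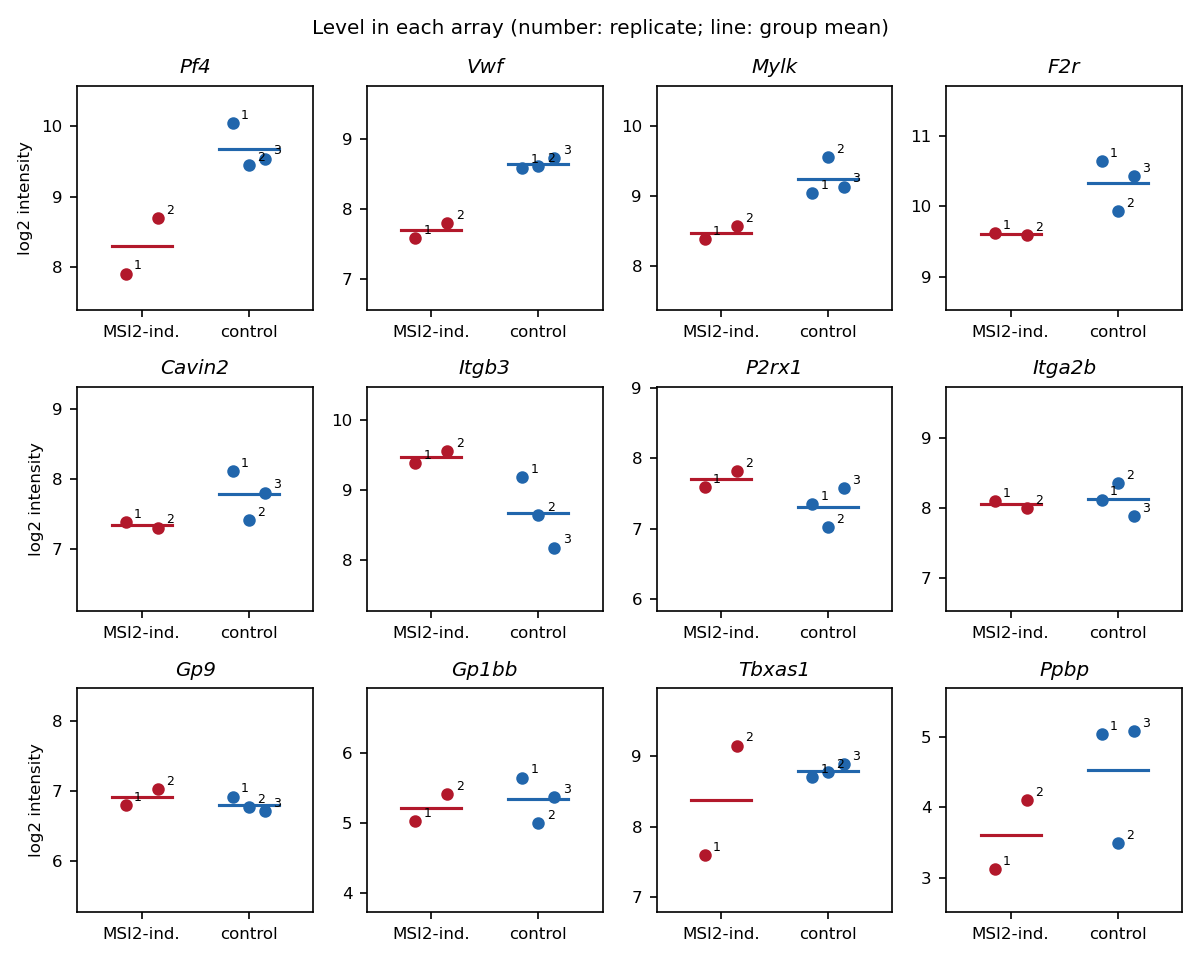
Log2 intensity of 12 genes in each array, MSI2-inducible arrays left (red) and control rtTA arrays right (blue), with the replicate number beside each point and a line at the group mean. Each panel has its own centre, and all panels span the same height. The groups do not overlap for Pf4, Vwf, Mylk, F2r, Cavin2, Itgb3 and P2rx1, and they overlap in the other panels.

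Where a gene had several probe sets, they did not always show the same difference. The list held 53 probe sets, with 16 genes read by 1 and 15 by more. The other Itgb3 probe set was also higher in both MSI2-inducible arrays (difference 0.45), and the other F2r probe set was lower in both (-0.37). For Mylk, 1 other probe set differed by -0.91 without overlap and the other by 0.09. For Cavin2 the others differed by -0.68 and 0.03, and for P2rx1 the other differed by -0.21, against 0.39 for the brightest. A second Fli1 probe set differed by 0.24, where the brightest gave -0.11, and another Rab27b probe set by 0.73 without overlap. Pf4 and Vwf had 1 probe set each, so their differences could not be checked on another.

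**Figure D4:**
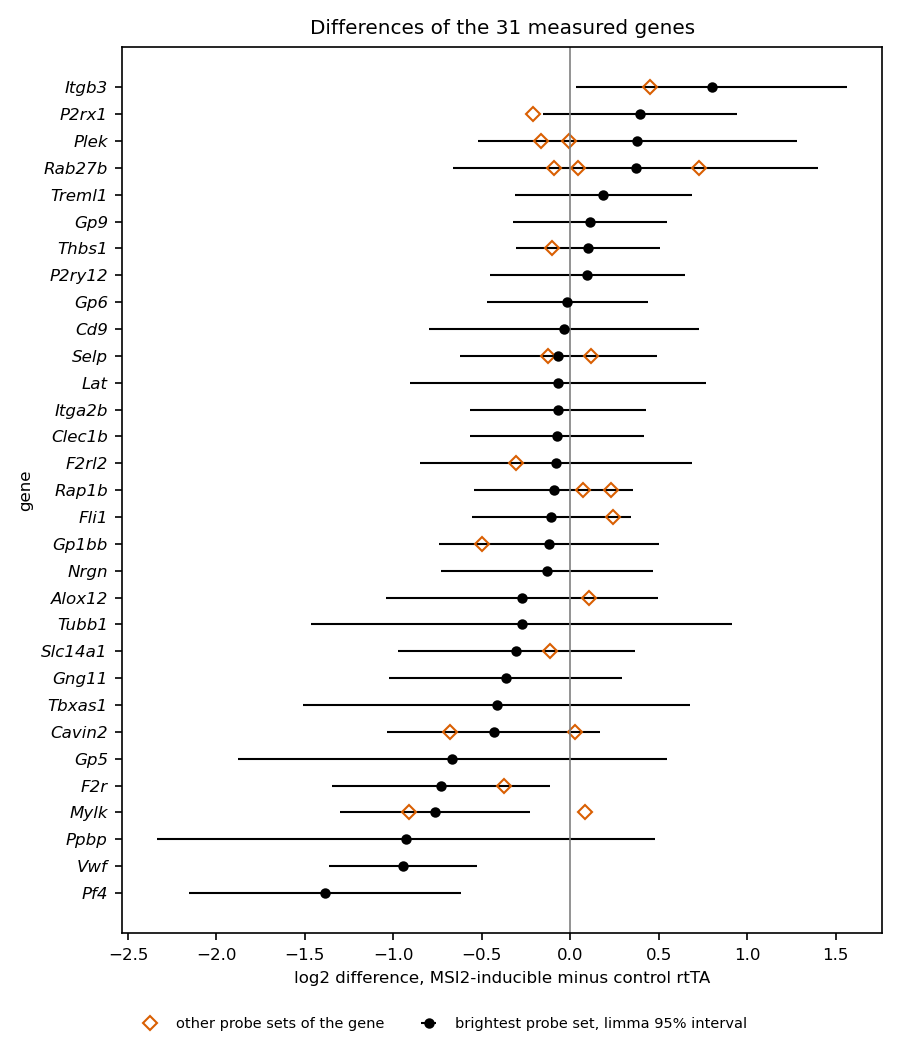
Log2 difference of MSI2-inducible minus control rtTA for the 31 genes, ordered by difference, with the brightest probe set as a filled point, its limma 95% interval as a line, and the gene's other probe sets as open diamonds. The intervals of Pf4, Vwf, Mylk, F2r and Itgb3 do not reach 0, and the other 26 do.

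The 2 MSI2-inducible arrays differed from each other across these genes. Replicate 1 was below replicate 2 for 25 of the 31 (80.7%), against 42.2% of all genes. The median of the members' deviations from the control mean was -0.31 in MSI2-inducible replicate 1 and 0.02 in replicate 2, and 0.06, -0.06 and 0.03 in control replicates 1, 2 and 3. MSI2-inducible replicate 1 was the lowest of the 5 arrays for 11 of the 31, and for 22.23% of all genes. Each other array was the lowest for 5 of the 31, and for 15.25% to 21.5% of all genes. Without MSI2-inducible replicate 1, 15 of the 31 genes had a negative difference (53.7% of all genes) and the median was 0.02, and without replicate 2, 23 were negative (46.1% of all genes) and the median was -0.31. The negative median of the list thus rested on MSI2-inducible replicate 1.

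Pf4, Vwf, Mylk, F2r and Itgb3 had groups that did not overlap. Leaving out 1 array could thus change the size of their differences but not the direction. With each of the 5 arrays left out in turn, Vwf differed by -1.05 to -0.84 and Pf4 by -1.78 to -0.99, with unadjusted limma p of 0.00338 to 0.00805 and 0.00526 to 0.0352. Mylk differed by -0.87 to -0.61 and F2r by -0.93 to -0.58, where p was under 0.05 in 4 and 1 of the 5 fits and the largest p were 0.0723, without MSI2-inducible replicate 1, and 0.108, without replicate 2. Itgb3 differed by 0.55 to 1.06, where the largest p was 0.189, without MSI2-inducible replicate 2, and p was under 0.05 in 1 of the 5 fits. No adjusted p passed in any of these fits.

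Transcription factors of the lineage differed in both directions. Of 22 listed, 21 were measured, 8 higher and 13 lower, with a median of -0.05, and 0 passed limma's test in either direction. At an unadjusted p under 0.05, 0 were higher and 0 lower, against 2.87% and 2.77% of all genes. Gata1, the main factor of megakaryocytes and red cells, lay at 6.91 and 6.85 in the MSI2-inducible arrays and at 7.61, 7.52 and 7.09 in the control arrays. The groups did not overlap, and the difference was -0.53 (unadjusted limma p 0.0509). Cbfb, the partner of RUNX factors, differed by -0.37 and Lyl1 by -0.28, both without overlap, whereas the Gata1 cofactor Zfpm1 differed by 0.44. Groups were fully separate for 3 factors that were lower (14.3%, against 9.39% of all genes) and 0 that were higher (against 9.27%).

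Further groups of the platelet programme were read in the same way. Of 14 measured genes of thrombopoietin signalling, 7 were higher and 7 lower (median 0.04), with 0 past the test. At an unadjusted p under 0.05, 0 were higher and 0 lower, against 2.87% and 2.77% of all genes. Il6st (-0.34), Stat5b (-0.32), Gab2 (-0.29) and Stat3 (0.25) had the smallest p. Of 36 platelet activation genes, 16 were higher and 20 lower (median -0.05), with 0 past the test. At an unadjusted p under 0.05, 1 was higher (2.78%, against 2.87% of all genes) and 2 lower (5.56%, against 2.77%). The calcium channel gene Orai1 (-0.74) and the laminin receptor gene Itga6 (-0.56) were the lower ones, Plcb3, a phospholipase C (0.66), the higher one, and the G protein gene Gnaq differed by -0.92. Gnaq rested on MSI2-inducible replicate 1, without which it differed by -0.28, and the mean of its probe sets also gave -0.28. Of 32 genes of granule formation and release, 11 were higher and 21 lower (median -0.12), with 0 past the test. At an unadjusted p under 0.05, 0 were higher (against 2.87% of all genes) and 2 lower (6.25%, against 2.77%). Those were Lyst (-0.55) and Hps3 (-0.51), both mutated in syndromes of defective lysosome-related granules, while Sparc differed by -0.38 and the granule fusion partner Stxbp2 by 0.59. For Hps3 the mean of its probe sets gave -0.18. Of 23 genes of endomitosis and the proplatelet cytoskeleton, 13 were higher and 10 lower (median 0.02), with 0 past the test. At an unadjusted p under 0.05, 0 were higher and 0 lower, against 2.87% and 2.77% of all genes. Aurkb (-0.49), Ccne1 (1.198), Tmod3 (0.41) and Gsn (0.45) had the smallest p, and without MSI2-inducible replicate 1 Ccne1 differed by -0.02 and Gsn by -0.03.

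Neutrophil, erythroid and stem and progenitor markers also differed between the 2 MSI2-inducible arrays. All 9 measured of 10 mature neutrophil markers were higher in MSI2-inducible replicate 1 than in replicate 2, with list medians of 1.99 and -0.95 against the control mean, and summed levels (log2 of the summed intensities) of 15.93 and 13.52 beside 13.80 to 14.70 in control arrays. Cxcr2 differed by 1.49 and Mmp9 by 1.58, with overlapping groups, and by 0.41 and -0.05 without MSI2-inducible replicate 1. Erythroid markers (9 of 12 measured) had medians of 1.13 and 0.18 in MSI2-inducible replicates 1 and 2, and summed levels of 13.99 and 13.68 beside 13.36 to 13.46 in control arrays. Epor differed by 1.16 (unadjusted limma p 0.0045) and Car1 by 1.24 (unadjusted limma p 0.0333), with groups that did not overlap. Such separation upward held for 22.2% of the 9 markers, against 9.27% of all genes, and 8 of the 9 had a positive difference. Stem and progenitor genes had medians of -0.46 and 0.02 in the 2 arrays. No marker was at 0 in any array, since every probe set has an intensity above 0. The part of these cells in the lower megakaryocyte values of replicate 1 was not tested.

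Markers of endothelial cells, which share Vwf, Selp, F2r and Thbs1 with platelets, and of stroma had mostly negative differences. All 12 listed markers were measured, 8 with a negative difference (66.7%, against 49.6% of all genes) and 4 with a positive one. Groups were fully separate for 3 that were lower (25.0%, against 9.39% of all genes) and 0 that were higher (against 9.27%). The median difference was -0.37, and 6 of the 12 had means under the median of all probe sets. Summed levels were 10.37 and 10.87 in the MSI2-inducible arrays beside 10.89 to 11.41 in the control arrays. The chemokine gene Cxcl12 differed by -2.16 and the sialomucin gene Emcn by -0.71 (-1.57 and -0.03 when MSI2-inducible replicate 1 was left out). For Cxcl12 the mean of its probe sets gave -1.12. Of these 12 markers, 0 passed limma's test, with 1 lower at an unadjusted p under 0.05 (8.33%, against 2.77% of all genes). The part of these cells in the Vwf and F2r differences was not tested. Of the further lists, monocyte and macrophage markers had a median of 0.14 over 10 genes (Ccr2 1.67, C1qb -0.86). The unadjusted limma p of Ccr2, 0.000314, was smaller than that of any megakaryocyte or platelet gene. Mast cell, basophil and eosinophil markers had a median of -0.16 over 8 (Ms4a2 0.67, Cpa3 -0.24). Mature B cell markers had a median of 0.21 over 6 (Cd22 0.43, Cd79a 1.07, the last at -0.05 without MSI2-inducible replicate 1) and T and NK cell markers -0.03 over 7 (Nkg7 -0.36, Cd3g 0.18). None of these genes passed limma's test. The 3′ minus 5′ Gapdh signal, a measure of RNA quality, was 2.22 in both MSI2-inducible arrays and 2.14, 2.60 and 2.40 in the control arrays. For beta-actin it was -0.06 and -0.07 in the MSI2-inducible arrays and -0.15, -0.15 and 0.01 in the control arrays.

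**Figure D5:**
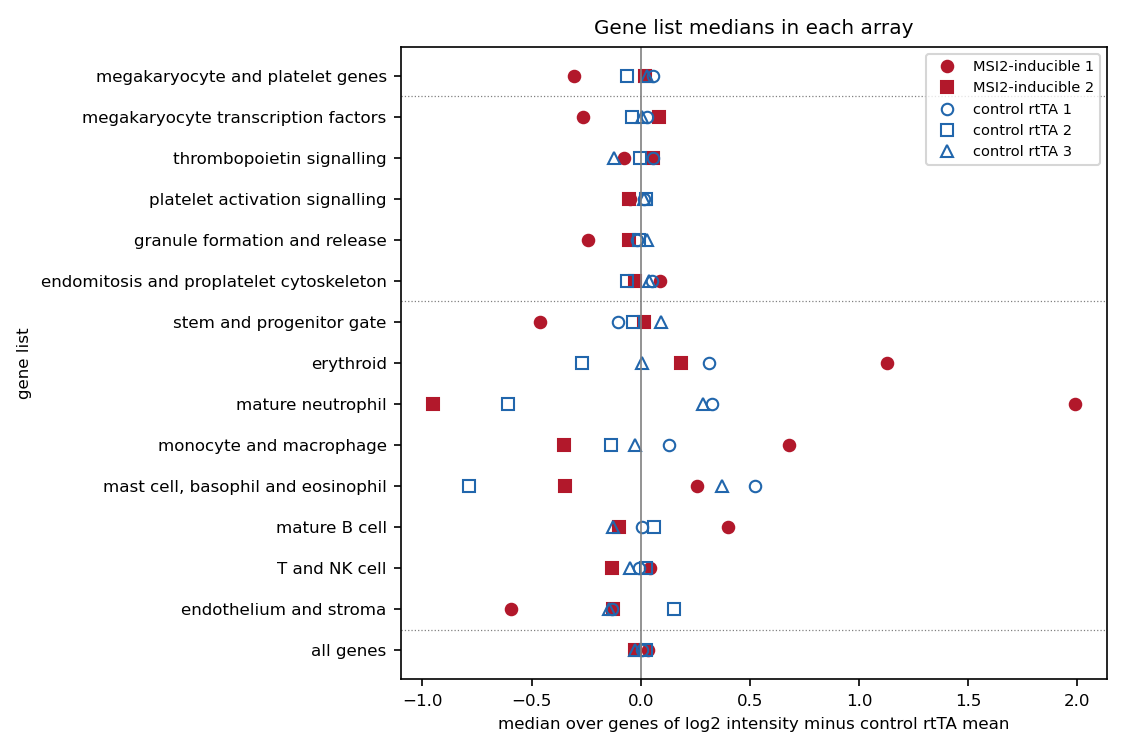
Median, over the genes of each list, of log2 intensity minus the control rtTA mean, for each array (filled red for MSI2-inducible, open blue for control rtTA, shape for the replicate). MSI2-inducible replicate 1 lies left of the other arrays for the megakaryocyte and platelet genes (-0.31) and furthest right for mature neutrophil markers (1.99), and replicate 2 lies among the control arrays for the megakaryocyte and platelet genes (0.02).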

How the data were processed

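The authors deposited 1 intensity per probe set and array (Affymetrix Mouse Expression Array), back on a linear scale and normalized. The submitters' processing notes name RMA, affy and R 2.11.0. How the values left RMA's log scale, and the genome build, are not stated in those notes. RNA was linearly amplified before biotin labelling, per the labels' protocols. Here log2 was taken with no pseudocount or further normalization. The number of arrays limits the precision.

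Platform annotation named the probe sets, with symbols brought up to date by Entrez ID in a GRCm38.p6 gene table: of 45101 probe sets, 34958 had 1 symbol (34754 found in that table), 932 several, and 9211 were unnamed here. One limma 3.58.1 fit (R 4.3.3, lmFit, then eBayes with its default options) covered 18194 genes with genotype as its term. P-values are two-sided, with Benjamini-Hochberg adjustment over all genes and a threshold of 0.05, and the fit was tested on simulated data. Members and lists were chosen with earlier results of these data known. All measured members are named. Values in every array follow for lineage-defining genes and for those with an unadjusted p under 0.05 or groups that do not overlap, and other lists give 2 to 4 genes of smallest p. Alternatives covered the value of a gene, low values, normalization, variance model, array weights, pairing, left-out arrays and the threshold. Other array values were picked after they were seen.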

Additional observations from a re-analysis of the deposited data

How the results depend on the processing

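Pf4, Vwf, Mylk, F2r, Cavin2, Itgb3 and P2rx1 kept their direction under all 13 alternatives, though several of these could not turn it. Of the 31 members, 12 kept theirs in every alternative in which they were tested. No member passed the adjusted test in any. Tests of every probe set, low values left out and the other variance model could not turn the direction of any member, since they keep the same differences. For the genes named first, whose groups do not overlap, array weights, the replicate block and left-out arrays could not turn it either. Their direction under those settings was fixed in advance. With the mean of a gene's probe sets, differences turned for Fli1 (0.0674), Rap1b (0.0703), Thbs1 (-0.0010), Gab2 (0.0982), Il6st (0.0776), Mecom (0.0105) and Tmod3 (-0.37), and 1 member was higher without overlap in place of 2. Array weights turned F2rl2 (0.0343), and arrays centred on their median turned Gp6 (0.0028). With 1 array left out in turn, the ranges crossed 0 for Alox12 (-0.68 to 0.14), Cd9 (-0.50 to 0.42), Clec1b (-0.18 to 0.0492), F2rl2 (-0.34 to 0.16), Fli1 (-0.24 to 0.0234), Gng11 (-0.77 to 0.0368), Gp1bb (-0.31 to 0.0709), Gp6 (-0.19 to 0.16), Gp9 (-0.0028 to 0.22), Itga2b (-0.19 to 0.0485), Lat (-0.57 to 0.44), Nrgn (-0.35 to 0.0857), P2ry12 (-0.0975 to 0.29), Rab27b (-0.20 to 0.94), Selp (-0.32 to 0.19), Tbxas1 (-1.19 to 0.36), Tubb1 (-0.55 to 0.22), Ccne1 (-0.0246 to 2.42), Cd79a (-0.0542 to 2.20), Gsn (-0.0258 to 0.93), Kit (-0.59 to 0.10) and Mmp9 (-0.0453 to 3.21). The members' median then lay between -0.31 and 0.0194, members at an unadjusted p under 0.05 numbered 0 to 1 higher and 2 to 7 lower (2 without MSI2-inducible replicate 1, 7 without control replicate 2), and genes past the test numbered 0 to 0 in each direction. Where an MSI2-inducible array was left out, the remaining one is assumed to vary like the control arrays.

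Of all genes, 3 were higher and 1 lower past the test, against 1 higher with array weights, 2 lower with low values left out, 2 lower with quantile normalization once more, and 3 lower at an adjusted p of 0.10. With array weights 0 members were higher at an unadjusted p under 0.05. With replicate number as a block, in the 2 pairs that share a number, 0 genes were higher and 0 lower, 0 members were higher at an unadjusted p under 0.05 (Itgb3 0.55, p 0.118), and 4 were lower, of which 3 were shared with the 4 found without the block: F2r left (-0.68, p 0.0648) and Gp5 came in (-1.04, p 0.0090). Tubb1 turned (0.22). Nothing in the labels pairs these arrays. Same-numbered deviations from the group mean correlated at 0.134 and 0.0989 over genes. These values cannot decide on pairing, since the deviations of the 2 MSI2-inducible arrays mirror each other and differently numbered arrays were not compared. Of the 31 members, 10 had means under the median of all probe sets and were not tested when low values were left out. The cause of these changes was not tested.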
